A study of Saccharomyces cerevisiae with 21 samples.

Results

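The genes described here encode 38 nuclear proteins of the yeast respiratory chain and the mitochondrial ATP synthase, out of 5656 genes that could be read from the arrays. They are 3 NADH dehydrogenases, 4 subunits of complex II, 9 of complex III, 7 of complex IV, 13 of complex V and 2 inhibitor proteins of complex V. They were chosen by what their proteins are, but with earlier results of these data known. Each gene was read on the probe set that matches it alone, and where several did, on the brightest of them by its mean across the 21 arrays. All 38 were found, with mean levels between 5.87 for NDE2 and 11.01 for ATP18 on the log2 scale, against a median of 6.82 over all genes.

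RNA came from Saccharomyces cerevisiae during a wine fermentation and was hybridised to 21 one-colour Affymetrix arrays. Cultures were sampled at 1, 12, 24, 48, 60, 120 and 340 h, with 3 biological replicates at each time. The study ties 5 of these times to the ethanol in the wine: 0.5% for 24 h, 2% for 48 h, 3.5% for 60 h, 7% for 120 h and 10% for 340 h, and gives none for 1 h and 12 h. The yeast strain, the must and the aeration are not given in the sources used here, and no culture without fermentation was analysed here, so time, ethanol, sugar and oxygen cannot be told apart.

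The respiratory chain passes electrons from NADH and succinate to oxygen and uses the energy to pump protons out of the mitochondrial matrix, and the ATP synthase lets the protons back in to make ATP. Saccharomyces cerevisiae lacks the large proton-pumping complex I of other organisms and oxidises NADH with single-protein dehydrogenases on either face of the inner membrane. In this yeast glucose represses most of the genes, and the activator Hap4 with its partners Hap2, Hap3 and Hap5 turns them on when sugar runs low, while heme and oxygen act through Hap1. Fermenting yeast makes its ATP mainly by glycolysis, so the respiratory genes are a usual marker of the release from glucose repression.

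Most of the genes stood above their 24 h level at 48, 60 and 120 h, and fewer did at 340 h. At 48 h against 24 h, 37 of the 38 genes rose, 0 fell and 1 did not pass (limma, adjusted p under 0.05), while 12.8% of all genes rose and 8.42% fell. The median change was 1.38 on the log2 scale, against -0.02 over all genes. NDE2 alone did not pass at 48 h (0.47 ± 0.19 SE, adjusted p = 0.0871), though it did without replicate 1 of 24 h (0.61), and the highest change was that of INH1 (3.42 ± 0.26, adjusted p = 1.71e-07). At 60 h against 24 h all 38 rose, from ATP19 (0.71 ± 0.25) to QCR10 (3.78 ± 0.17), with a median of 1.64. Of all genes, 22.6% rose and 20.8% fell at 60 h.

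At 120 h, in 7% ethanol, 36 of the 38 genes still stood above 24 h, with a median change of 1.60, while 26.6% of all genes rose and 26.6% fell. The 2 that did not pass were subunits of the ATP synthase, ATP5 (0.47 ± 0.23) and ATP19 (0.28 ± 0.25). ATP5 passed without replicate 2 of 120 h (0.62), and ATP7, called there with overlapping arrays, did not pass without replicate 1 or 2 of 24 h (0.83 and 1.01) or replicate 3 of 120 h (0.73). At 340 h, in 10% ethanol, 24 rose, 7 fell and 7 did not pass against 24 h. Their median change was 0.85, while 27.8% of all genes rose and 36% fell. All 7 that fell were subunits of complex V. In all, 35 genes rose at 48, 60 and 120 h, and 23 rose at each of the 4 later times. The share of all genes with either pattern was not counted. These comparisons share the 24 h arrays and are not independent of each other.

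Set against the time before, the steps were uneven. At 60 h against 48 h, 2 genes rose and 0 fell, against 3.48% and 4.6% of all genes, and both belong to complex III: RIP1 (1.18 ± 0.35) and QCR10 (0.60 ± 0.17). Neither passed when any 1 of the 6 arrays was left out (RIP1 0.87 to 1.34, QCR10 0.54 to 0.68). The changes of 34 of the 38 genes lay above 0 in this step, with a median of 0.35. At 120 h against 60 h, 0 rose and 5 fell, against 4.6% and 4.95% of all genes, and all 5 belong to complex V: ATP16 (-0.92 ± 0.18), ATP14 (-0.82 ± 0.19), ATP5 (-0.81 ± 0.23), ATP3 (-0.68 ± 0.18) and ATP17 (-0.61 ± 0.17). Which genes were called depended on the scale. Centred on 5 reference genes (ACT1, ALG9, TAF10, TFC1 and UBC6), 2 genes rose, CYT1 (1.00) and COX7 (0.67), and 0 fell. Of all genes, 13.8% rose and 1.31% fell on that scale, and the median of the 38 was 0.30 against -0.01 as deposited. The 5 of complex V stayed below 0, from ATP16 (-0.61, limma, adjusted p = 0.0895) to ATP17 (-0.30), and none passed. The scale raised every change in this step by 0.31, while the median change of the reference genes was -0.03. On the deposited scale ATP16 passed whichever array was left out, and between 1 and 7 genes were called, with 1 without replicate 2 of 120 h, 2 without replicate 1 of 120 h or replicate 1 or 3 of 60 h, and 3 without replicate 2 of 60 h. A second probe set for ATP14 gave -0.33 in this step and did not pass. With the mean of all its probe sets ATP14 changed by -0.57 and was not called (limma, adjusted p = 0.0716). Same-numbered replicates deviated together in this step and the next, and with the replicate number as a block SDH3 (-0.75, adjusted p = 0.0456) and CYT1 (0.69, adjusted p = 0.0471) also passed here. At 340 h against 120 h, 27 fell and 0 rose, with a median of -1.05 against -0.17 over all genes, of which 15.9% rose and 26.6% fell. Of the 27, 15 still stood above 24 h, a pattern that was not counted over all genes. Among the 5 main times, 48 h held the highest mean of 4 genes, 60 h that of 17, 120 h that of 15 and 340 h that of 2.

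**Figure D1:**
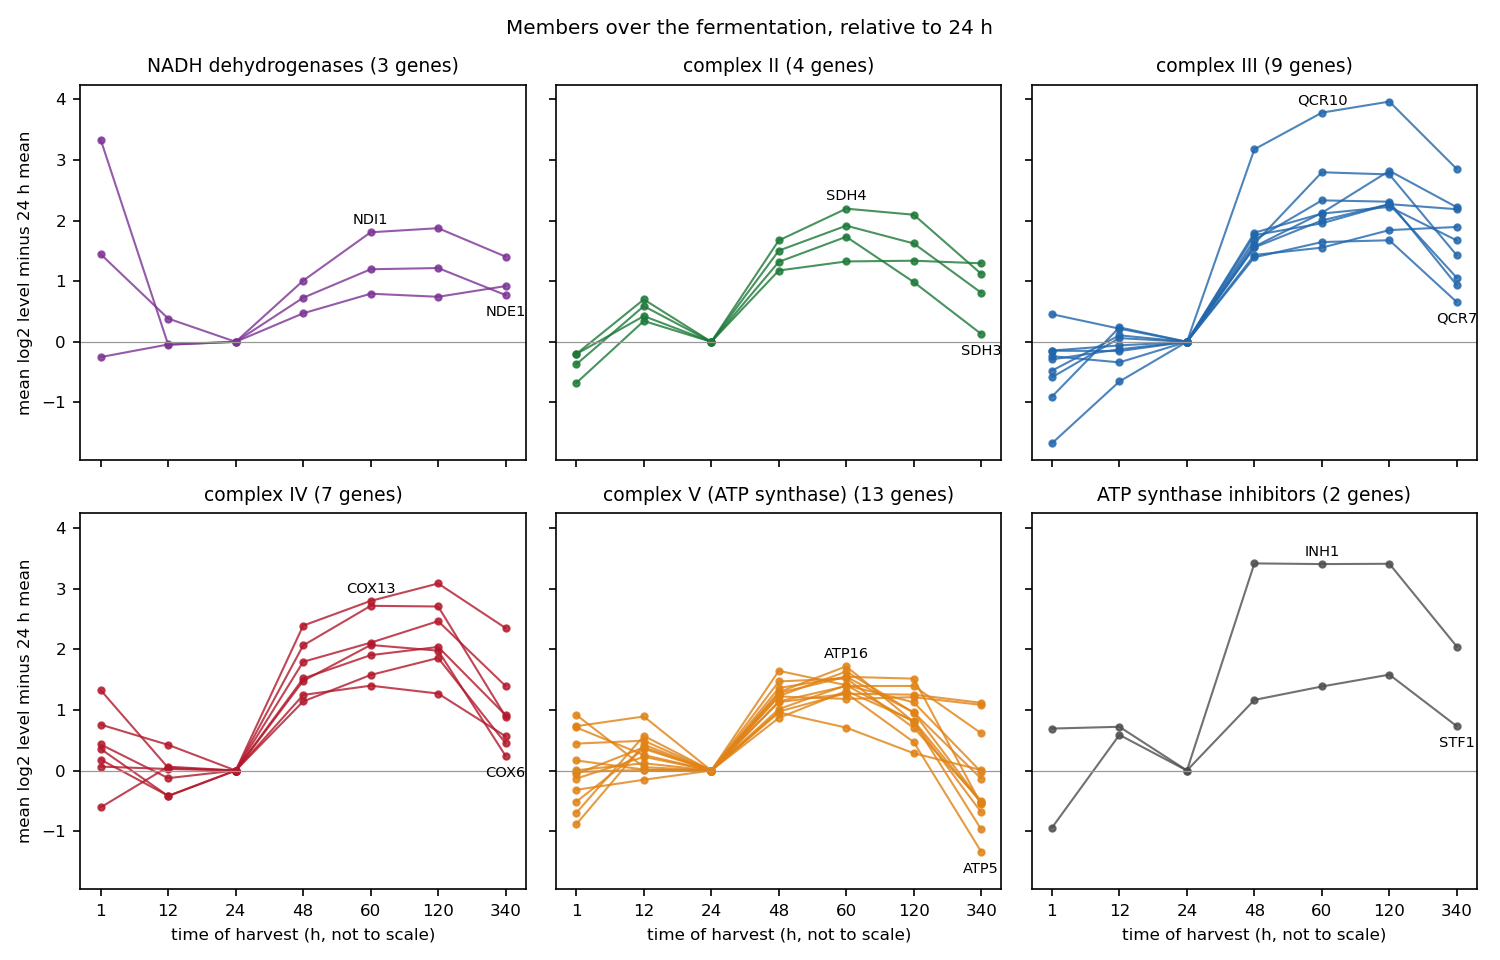
Mean log2 level of each of the 38 genes at each time (3 arrays) minus its mean at 24 h, in 6 panels, with hours on an unscaled axis and each line 1 gene. Every line lies above 0 at 48 h and 60 h, with 4 genes (ATP7, ATP15, ATP19 and INH1) highest at 48 h, and at 340 h those of complex V spread to both sides of 0, from ATP5 at -1.34 to ATP18 at 1.12.

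Some arrays stood apart, and their RNA controls are given here because they touch the results below. Over all genes, replicate 3 of 24 h had a mean correlation of 0.9598 with the other arrays of its time, the lowest of the 21, an 18S ribosomal RNA signal of 9.327 against 6.364 and 6.493 for the other 24 h arrays, and a difference between the 3' and 5' probe sets of ACT1 of 2.021 against 1.033 and 1.248. On the 340 h arrays the 18S signal was 10.09 to 12.08, the ACT1 difference 1.713 to 2.739 and the same difference for SPT15 2.532 to 3.195, while the 24 h arrays read 1.971 to 2.287 for SPT15. The 18S signal was 8.69 to 9.694 at 1 h and 12 h, and 9.608 on replicate 3 of 120 h. The ACT1 difference was also 1.731 to 1.926 on the 48 h arrays and 1.459 to 1.715 on the 120 h arrays. A larger difference goes with more degraded RNA, and its part in the changes was not tested. All values are relative to the other transcripts on the same array, so a change in the RNA of a whole cell is not visible.

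The NADH dehydrogenases come first in the chain. NDI1, which faces the matrix and takes the NADH of the citric acid cycle, read 8.23, 8.29 and 7.92 on the 60 h arrays, against 6.88, 6.41 and 5.73 on the 24 h arrays. The groups did not overlap, and the change was 1.81 ± 0.27 (3.5-fold, adjusted p = 3.4e-05). NDI1 kept 1.41 ± 0.27 of it at 340 h (adjusted p = 0.000169). NDE1 and NDE2 face the space between the membranes and take cytosolic NADH. NDE1 rose by 1.20 ± 0.23 at 60 h and 0.77 ± 0.23 at 340 h, and NDE2 by 0.79 ± 0.19 and 0.92 ± 0.19. None of the 3 passed at 340 h against 120 h (NDI1 -0.47, NDE1 -0.45, NDE2 0.18). The calls of NDI1 and NDE1 at 48 h were the least secure of the group: without replicate 3 of 24 h NDI1 changed by 0.70 (adjusted p = 0.057) and NDE1 by 0.55 (adjusted p = 0.109), and both also missed the threshold without replicate 1 or 2 of 48 h (NDI1 0.84 and 0.87, NDE1 0.62 and 0.71), NDE1 in addition without replicate 2 of 24 h (0.70).

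Complex II is succinate dehydrogenase, an enzyme of the citric acid cycle that feeds electrons into the chain. Its flavoprotein SDH1, where succinate is oxidised, read 9.29, 9.39 and 9.52 at 340 h, against 7.87, 8.10 and 8.33 at 24 h. All arrays of 340 h lay above those of 24 h, and the change was 1.30 ± 0.22 (2.45-fold, adjusted p = 4.28e-05). SDH1 did not differ detectably between 340 h and 120 h (-0.04 ± 0.22, adjusted p = 0.892). The membrane anchor SDH4 gave the highest change of the complex at 60 h (2.20 ± 0.19). The other anchor, SDH3, rose by 1.73 ± 0.24 at 60 h, and at 340 h it read 8.07, 8.60 and 8.35, against 8.17, 8.35 and 8.11 at 24 h. Those arrays overlapped, and the change of SDH3 was 0.13 ± 0.24 (adjusted p = 0.657). Between 340 h and 120 h SDH2, SDH3 and SDH4 were lower at 340 h, with changes of -0.98 to -0.81, and the arrays of SDH2 and SDH3 overlapped. SDH2 missed the threshold there without replicate 2 or 3 of 120 h (-0.78 and -0.72) or of 340 h (-0.58 and -0.76). SDH2, the iron-sulfur subunit, kept 0.81 ± 0.27 at 340 h against 24 h, a call that was lost without replicate 1 of 340 h (0.52, adjusted p = 0.0968) or replicate 3 of 24 h (0.68, adjusted p = 0.0527).

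In complex III, the cytochrome bc1 complex, 9 of 9 subunits rose at 48, 60, 120 and 340 h, as did both inhibitor proteins of complex V. Of all genes, 12.8%, 22.6%, 26.6% and 27.8% rose at these times. The median change of complex III was 2.12 at 60 h, 2.27 at 120 h and 1.67 at 340 h. QCR10, a small subunit that joins late in assembly and is not needed for respiratory growth, read 10.90, 10.71 and 11.27 at 120 h, against 7.07, 7.18 and 6.72 at 24 h. This was the largest change of the 38 genes at 120 h (3.96 ± 0.17, 15.6-fold, adjusted p = 7.53e-11), and the groups lay more than 3 log2 units apart. At 340 h QCR10 still read 9.93, 9.68 and 9.92, a change of 2.85 ± 0.17 against 24 h.

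The electron-carrying subunits of complex III moved with it. RIP1, the Rieske iron-sulfur protein, read 11.58, 11.56 and 11.51 at 60 h, against 9.66, 8.97 and 7.64 at 24 h. The lowest of its 24 h values was that of replicate 3, and the change was 2.80 ± 0.35 (6.95-fold, adjusted p = 5.66e-06). A second probe set for RIP1, among the controls of the array, gave 2.75 at 60 h, 1.56 at 340 h and -1.11 at 340 h against 120 h, close to 2.80, 1.43 and -1.34 on the probe set used. CYT1, cytochrome c1, rose by 2.13 ± 0.35 at 60 h and 2.82 ± 0.35 at 120 h. Of the core proteins, QCR2 and COR1 rose by 2.33 and 1.96 at 60 h and had 0.93 and 1.06 left at 340 h. Without replicate 3 of 24 h the change of COR1 at 340 h was 0.68 (adjusted p = 0.0776).

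In the last step, 340 h against 120 h, the subunits of complex III parted. RIP1 (-1.34), QCR2 (-1.38), COR1 (-1.21), QCR10 (-1.11), QCR7 (-1.02) and QCR9 (-0.55) fell. QCR6, the acidic hinge subunit, read 11.64, 11.20 and 11.15 at 340 h, against 11.80, 11.21 and 11.23 at 120 h, and QCR8, next to the quinone site, changed by 0.05 ± 0.17. Neither passed, nor did CYT1 (-0.60 ± 0.35, adjusted p = 0.177), which passed with the replicate number as a block (adjusted p = 0.0349). A second and dim probe set for QCR8, with a mean level of 4.02, gave -0.16 at 60 h. The smallest change of the complex at 340 h against 24 h was that of QCR7 (0.65 ± 0.20), which was not called without replicate 3 of 340 h (0.46, adjusted p = 0.0569). The call of QCR9 against 120 h was lost without replicate 3 of 120 h (-0.45) or replicate 1 or 2 of 340 h (-0.57 and -0.42), with all 21 arrays in the fit (adjusted p = 0.0505), under either centring (-0.44 and -0.39) and after a further quantile normalization (-0.46).

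Complex IV, cytochrome c oxidase, hands the electrons to oxygen. All 7 nuclear subunits rose at 48, 60 and 120 h, with medians of 1.52, 2.07 and 2.04, and 4 of 7 at 340 h, with a median of 0.89. Of all genes, 12.8%, 22.6%, 26.6% and 27.8% rose at these times. COX13, a peripheral subunit, read 11.12, 10.86 and 11.25 at 120 h, against 8.34, 7.96 and 7.68 at 24 h. Its change was 3.09 ± 0.19 (8.49-fold, adjusted p = 1.13e-09), and 2.35 ± 0.19 remained at 340 h. COX4, the zinc-binding subunit, rose by 2.72 ± 0.26 at 60 h. At 340 h COX4 read 9.22, 8.49 and 8.78, against 10.65, 10.48 and 10.83 at 120 h, the largest fall of the complex over that step (-1.82 ± 0.26, adjusted p = 3.87e-05). COX9 was the one subunit of the complex not to pass there (-0.71 ± 0.32, adjusted p = 0.0836), and it passed with the replicate number as a block (adjusted p = 0.0113) or without replicate 3 of 340 h (-0.998).

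COX6, one of the subunits that did not pass at 340 h, read 8.84, 8.03 and 8.43 at 340 h, against 8.60, 8.50 and 7.46 at 24 h, and the groups overlapped (0.24 ± 0.27, adjusted p = 0.459). COX8 (0.45 ± 0.20, adjusted p = 0.057) and COX9 (0.56 ± 0.32, adjusted p = 0.133) also did not pass at 340 h. Both passed without some single arrays: COX8 without replicate 1 of 24 h (0.62) or of 340 h (0.54), and COX9 without replicate 3 of 24 h (0.90) or replicate 2 of 340 h (0.86). COX7, COX12, COX4 and COX13 were the subunits that stayed higher.

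**Figure D2:**
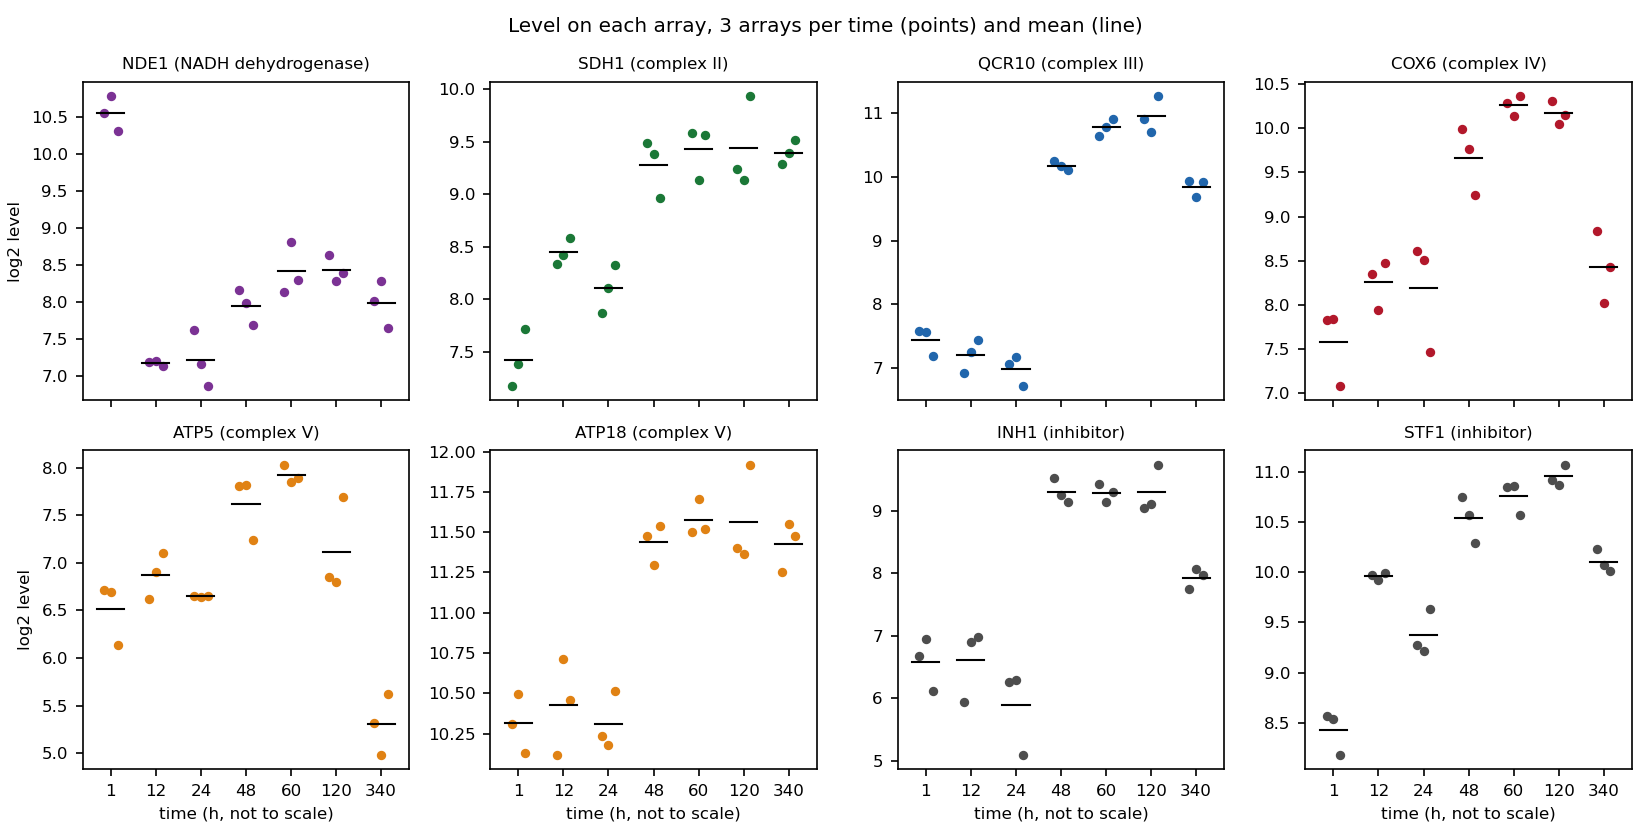
Log2 level on each of the 21 arrays for 8 genes, with points for arrays, black lines for the means of 3 and hours on an unscaled axis. ATP5 at 340 h reads 4.99 to 5.62, below its 24 h arrays at 6.64 to 6.65, while ATP18 reads 11.25 to 11.55 at 340 h, above all its 24 h arrays.

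Complex V, the ATP synthase, had a smaller median rise at 60 h than complexes II, III and IV, and at 340 h its subunits lay on both sides of their 24 h level. All 13 rose at 48 h and 60 h, with medians of 1.22 and 1.41, and 11 of 13 at 120 h, with a median of 0.95. Of all genes, 12.8%, 22.6% and 26.6% rose at these times. At 340 h against 24 h, 3 rose, 7 fell and 3 did not pass, while 27.8% of all genes rose and 36% fell. The median change was -0.50. Against 120 h, 10 fell by 340 h and 3 did not pass, while 26.6% of all genes fell and 15.9% rose. The median was -1.20.

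In the catalytic head and its rotor, ATP2, the catalytic beta subunit, rose by 1.55 ± 0.24 at 60 h and was back near its start at 340 h (-0.14 ± 0.24, adjusted p = 0.645). ATP1, the alpha subunit, kept 0.61 ± 0.21, which was not called without replicate 3 of 24 h (0.46) or of 340 h (0.45). The rotor subunits differed. ATP16, the delta subunit, read 7.24, 6.99 and 7.30 at 340 h, against 8.26, 8.18 and 8.02 at 24 h, with no overlap (-0.97 ± 0.18, 0.51-fold, adjusted p = 0.000133). ATP15, the epsilon subunit that sits beside it, read 9.70, 9.88 and 10.05 at 340 h, against 8.36, 8.60 and 9.41 at 24 h. All of its 340 h arrays were higher (1.08 ± 0.23, 2.12-fold, adjusted p = 0.000565). ATP3, the gamma subunit that forms the shaft, fell by 0.52 ± 0.18 (adjusted p = 0.0189).

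The peripheral stalk holds the head still against the rotor. Its OSCP subunit ATP5 read 5.31, 4.99 and 5.62 at 340 h, against 6.65, 6.64 and 6.65 at 24 h. This was the largest fall of the 38 genes (-1.34 ± 0.23, 0.395-fold, adjusted p = 5.42e-05), and the groups lay apart. ATP5 had risen by 1.28 ± 0.23 at 60 h and changed by 0.47 ± 0.23 at 120 h (adjusted p = 0.0933), where replicate 3 read 7.69 and the other arrays 6.85 and 6.80. ATP4, which crosses the membrane, fell by 0.54 ± 0.22, but its arrays overlapped. ATP14 fell by 0.50 ± 0.19 on the probe set used. A second probe set for ATP14 gave -0.02 at 340 h, 0.58 at 60 h and -0.28 at 340 h against 120 h. ATP7 did not pass (-0.02 ± 0.36), and its fall against 120 h was not called without replicate 3 of 120 h (-0.75) or replicate 1 of 340 h (-0.95).

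Among the small membrane subunits, ATP18 read 11.25, 11.55 and 11.48 at 340 h, against 10.24, 10.18 and 10.51 at 24 h, with no overlap (1.12 ± 0.17, 2.17-fold, adjusted p = 2.09e-05). ATP17 read 7.32, 7.13 and 7.14 at 340 h, against 8.13, 7.97 and 7.55 at 24 h, also with no overlap but in the other direction (-0.69 ± 0.17, adjusted p = 0.0018). ATP20, which helps the enzyme to dimerise, fell by 0.56 ± 0.20 against 24 h, and by 2.08 ± 0.20 against 120 h, the largest fall of the 38 genes over that last step. ATP19, found in the dimers, had the smallest rise at 60 h, and it was not called there without replicate 1 of 24 h (0.51) or replicate 1 or 3 of 60 h (0.74 and 0.59), nor at 48 h without replicate 1 of 24 h (0.76) or replicate 3 of 48 h (0.81). At 340 h ATP19 did not pass (0.01 ± 0.25).

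The falls of complex V below 24 h depended on the scale more than the rises did. Centring each array on the median level of the 5 reference genes raised the change of every gene at 340 h against 24 h by 0.70. The median of the changes of those 5 genes was only -0.32. After the shift 29 of the 38 genes rose and ATP5 alone fell (-0.64, limma, adjusted p = 0.0269), while 52.2% of all genes rose and 15.5% fell. On that scale 77.1% of all called genes were higher, against 43.5% on the deposited scale, but 2 of the reference genes, TAF10 (-1.60) and ALG9 (-0.60), themselves fell on the deposited scale. With each array centred on the median of all genes, a shift of 0.12, 25 rose and 3 fell. Leaving out single arrays left 3 to 6 falls, with 3 without replicate 1 of 340 h and 4 without replicate 2 or replicate 3 of 24 h. The calls lost in this way were those of ATP3 (as small as -0.43), ATP4 (-0.42), ATP14 (-0.37) and ATP20 (-0.47). The order within the complex does not depend on the scale: on each array the same shift moves all genes.

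**Figure D3:**
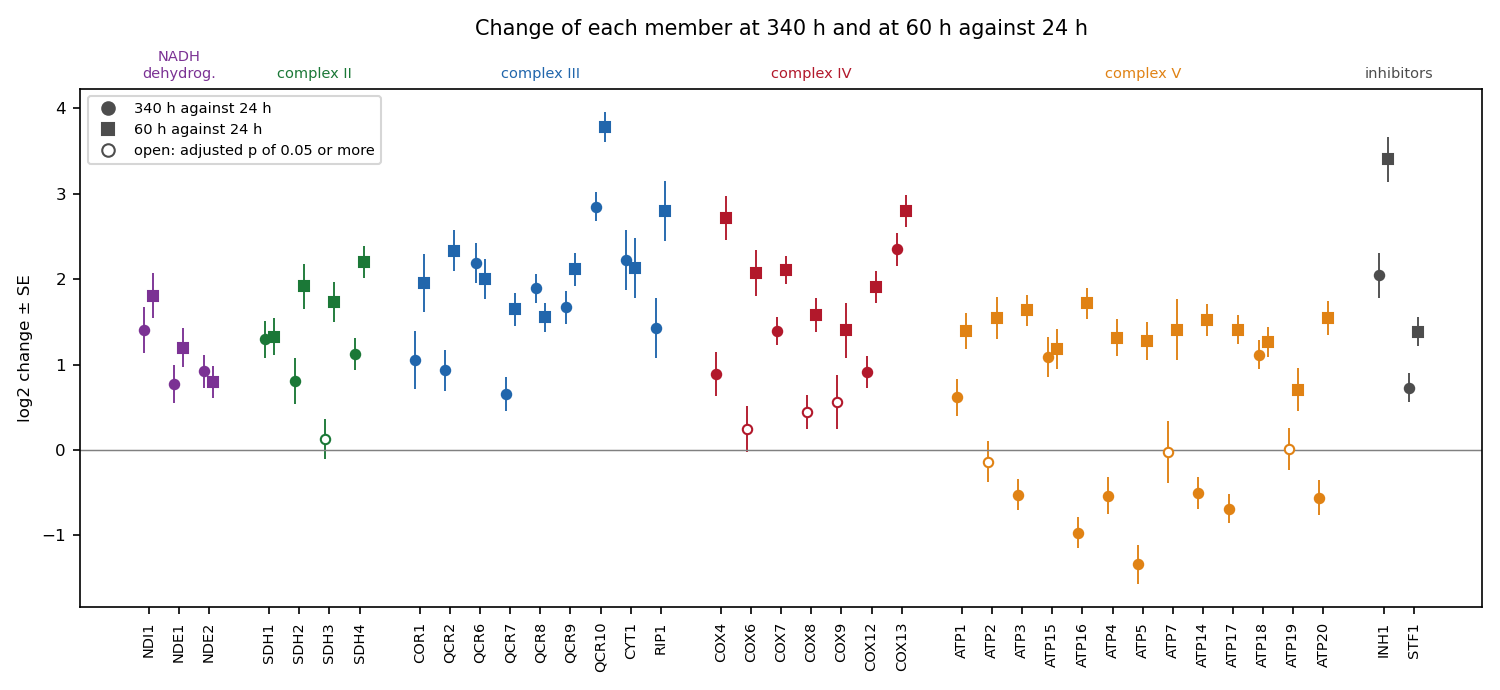
Log2 change ± SE of each of the 38 genes at 340 h (circles) and at 60 h (squares) against 24 h, by complex, with open symbols for an adjusted p of 0.05 or more. At 60 h every gene lies above 0, and at 340 h the 9 genes of complex III lie above 0 while 9 of the 13 subunits of complex V lie below it.

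The inhibitor proteins bind the ATP synthase and keep it from breaking down ATP. INH1 read 9.43, 9.13 and 9.31 at 60 h, against 6.26, 6.28 and 5.10 at 24 h. The groups lay far apart, with replicate 3 the lowest at 24 h, and the change was 3.41 ± 0.26 (10.6-fold, adjusted p = 1.84e-08). INH1 reached this level at 48 h and kept it at 120 h (3.41 ± 0.26). At 340 h it read 7.74, 8.07 and 7.97, still 2.04 ± 0.26 above 24 h. STF1, its paralogue, rose less, by 1.39 ± 0.17 at 60 h and 0.73 ± 0.17 at 340 h. Both inhibitors stood above their 24 h level at 340 h, while 7 subunits of the enzyme stood below theirs.

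Whether paralogues changed by different amounts was tested for 6 pairs, on the difference between the 2 genes of a pair on each array, which no scaling of the array can alter. Over the 12 arrays after 24 h, STF1 minus INH1 was 1.85 lower than on the 3 arrays of 24 h (exact permutation test, two-sided, adjusted p = 0.0044 over the 6 pairs), with all 12 arrays lower. Without replicate 3 of 24 h, that difference was -1.33 (exact permutation test, adjusted p = 0.022). COX5B minus COX5A, the low-oxygen and the aerobic form of the same complex IV subunit, was -2.15, and SHH4 minus SDH4, a homologue of an anchor of complex II and that anchor, was -1.77 (exact permutation test, adjusted p = 0.0044 each). In those pairs COX5A rose by 2.82 ± 0.22 at 60 h and COX5B changed by 0.47 ± 0.22 (adjusted p = 0.098), and SHH4 changed by 0.20 ± 0.17. For these pairs and STF1 minus INH1, the exact permutation p before adjustment was 0.0022, the smallest this test can give. The test treats the 12 arrays as independent. That was not shown, as same-numbered replicates deviated together from 60 h to 120 h and from 120 h to 340 h.

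For the other 3 pairs no difference in response was found. NDE2 minus NDE1 was -0.25 (exact permutation test, adjusted p = 0.359) and CYC7 minus CYC1, the low-oxygen and aerobic forms of cytochrome c, was -0.39 (exact permutation test, adjusted p = 0.32). CYC7 in fact rose with CYC1, by 2.19 ± 0.20 and 2.50 ± 0.32 at 60 h. SHH3 minus SDH3 was 0.06 over all later times (exact permutation test, adjusted p = 0.905), from -0.95 at 48 h to 0.93 at 340 h, where SHH3 kept a rise of 1.06 ± 0.17. With 3 arrays against 3, no single time can reach an exact permutation p below 0.1.

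**Figure D4:**
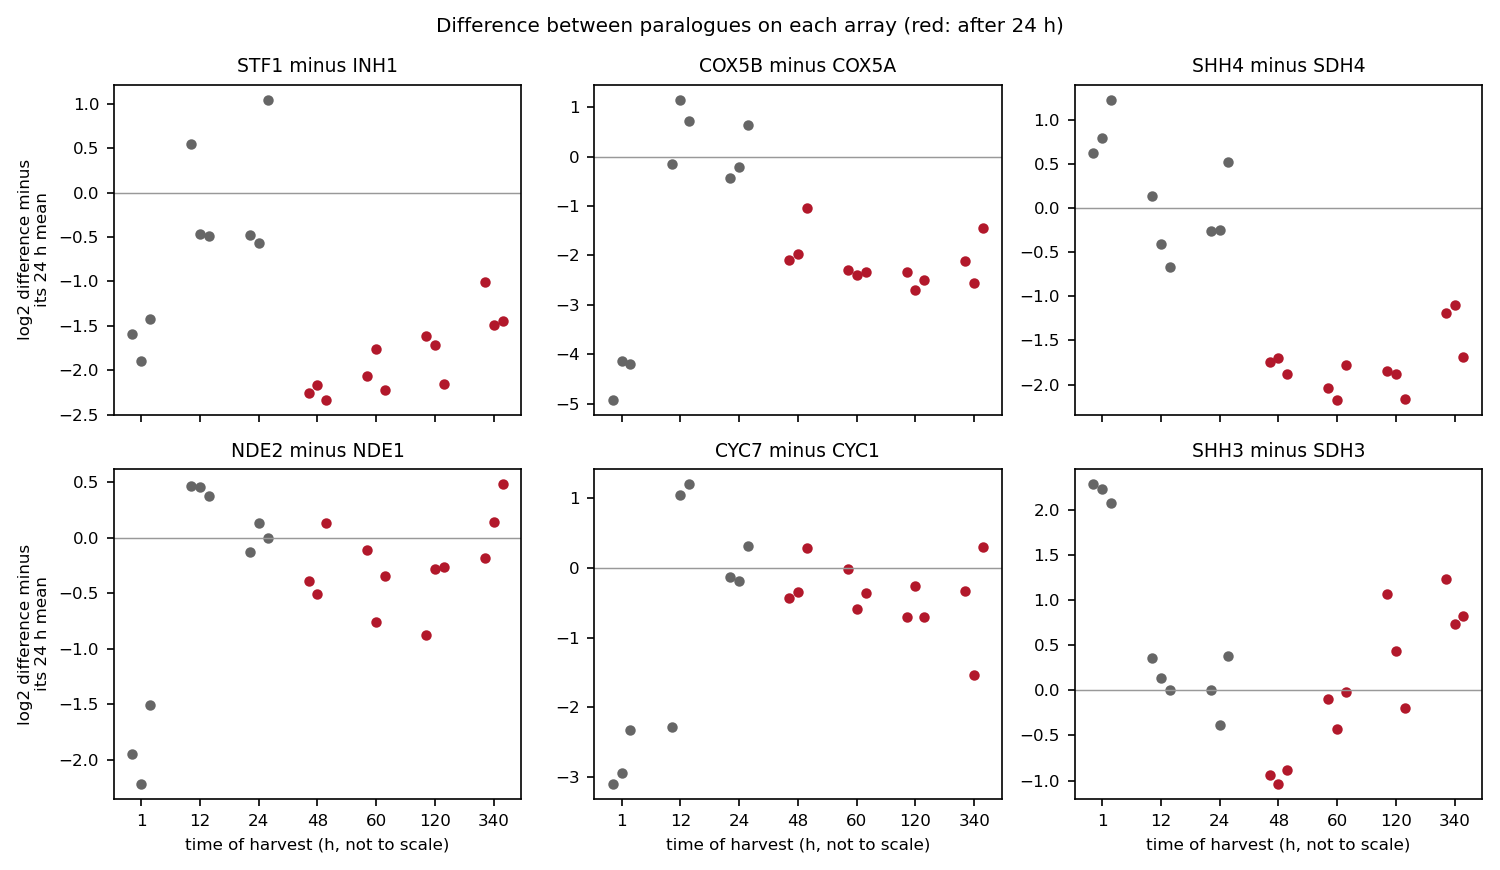
Difference in log2 level between the genes of 6 paralogue pairs on each array, minus the mean difference at 24 h, with red points for the 12 arrays after 24 h and grey points for the arrays of 1, 12 and 24 h (those of 1 h and 12 h were not tested). All 12 red points of STF1 minus INH1, COX5B minus COX5A and SHH4 minus SDH4 lie below the 24 h arrays.

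The first hours were different, and the complexes did not move together. At 12 h against 1 h, 11 genes rose, 7 fell and 20 did not pass. The median was 0.14, while 26% of all genes rose and 33.9% fell. NDE1 read 7.18, 7.19 and 7.13 at 12 h, against 10.55, 10.79 and 10.31 at 1 h, the largest change of the 38 genes in that step (-3.38 ± 0.21, 0.0958-fold, adjusted p = 7.46e-12). NDE2 fell by 1.06 ± 0.18, and NDI1 did not pass (0.21 ± 0.25). The levels of NDE1 and NDE2 at 1 h were the highest of the whole fermentation for both genes.

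All 4 genes of complex II rose at 12 h, by 0.63 (SDH3) to 1.02 (SDH1), while 26% of all genes rose. The call of SDH3 was lost without replicate 1 or 2 of 1 h (0.60 and 0.57) or replicate 2 or 3 of 12 h (0.57 and 0.55). In complex III, QCR2 (1.14 ± 0.24) and CYT1 (1.02 ± 0.32) rose. In complex V, ATP16 (1.31 ± 0.19), ATP2 (1.27 ± 0.25) and ATP3 (0.87 ± 0.20) of the head rose and ATP20 fell (-0.86 ± 0.22). STF1 read 9.98, 9.92 and 9.99 at 12 h, against 8.57, 8.54 and 8.18 at 1 h, the largest rise of the 38 genes at this step (1.53 ± 0.16), while INH1 changed by 0.03 ± 0.29.

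In complex IV 4 of 7 genes fell at 12 h, 1 rose and 2 did not pass, while 33.9% of all genes fell and 26% rose. COX13 read 7.77, 8.13 and 8.20 at 12 h, against 9.49, 9.43 and 9.04 at 1 h (-1.28 ± 0.19, adjusted p = 5.93e-06), and the groups did not overlap. COX7 (-0.78), COX8 (-0.60) and COX12 (-0.56) also fell, and COX6 rose (0.67 ± 0.27). Centred on the 5 reference genes, 13 of the 38 rose and 4 fell, and COX7, COX8 and COX12 no longer passed. On that scale 31.7% of all genes rose and 22.5% fell. The call of COX6 was lost without replicate 3 of 1 h (0.42) or replicate 1 or 3 of 12 h (0.62 and 0.56), that of COX8 without replicate 2 of 1 h (-0.49) or of 12 h (-0.53), and that of COX12 without replicate 1 or 2 of 1 h (-0.49 and -0.42). As a description, longer genes of the set tended to change upward at 12 h. Spearman's rho between change and gene length was 0.458 over the 38 genes and 0.03 over all genes. At 60 h against 48 h it was 0.372 over the 38 genes and 0.224 over all genes. At 340 h against 120 h it was 0.03 over the 38 genes and 0.14 over all genes. In every other comparison it lay between -0.184 and -0.00208 over the 38 genes. Genes share arrays, so these values are given with no test.

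From 12 h to 24 h little moved: 1 gene fell, ATP14 (-0.89 ± 0.20, adjusted p = 0.0317), and 0 rose, against 1.27% and 0.796% of all genes. The call of ATP14 was lost without replicate 2 or 3 of 12 h (-0.91 and -0.87) or replicate 1 or 2 of 24 h (-0.87 and -0.80). With 37 of 38 genes not passing, 12 h and 24 h could not be told apart on most of the set.

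**Figure D5:**
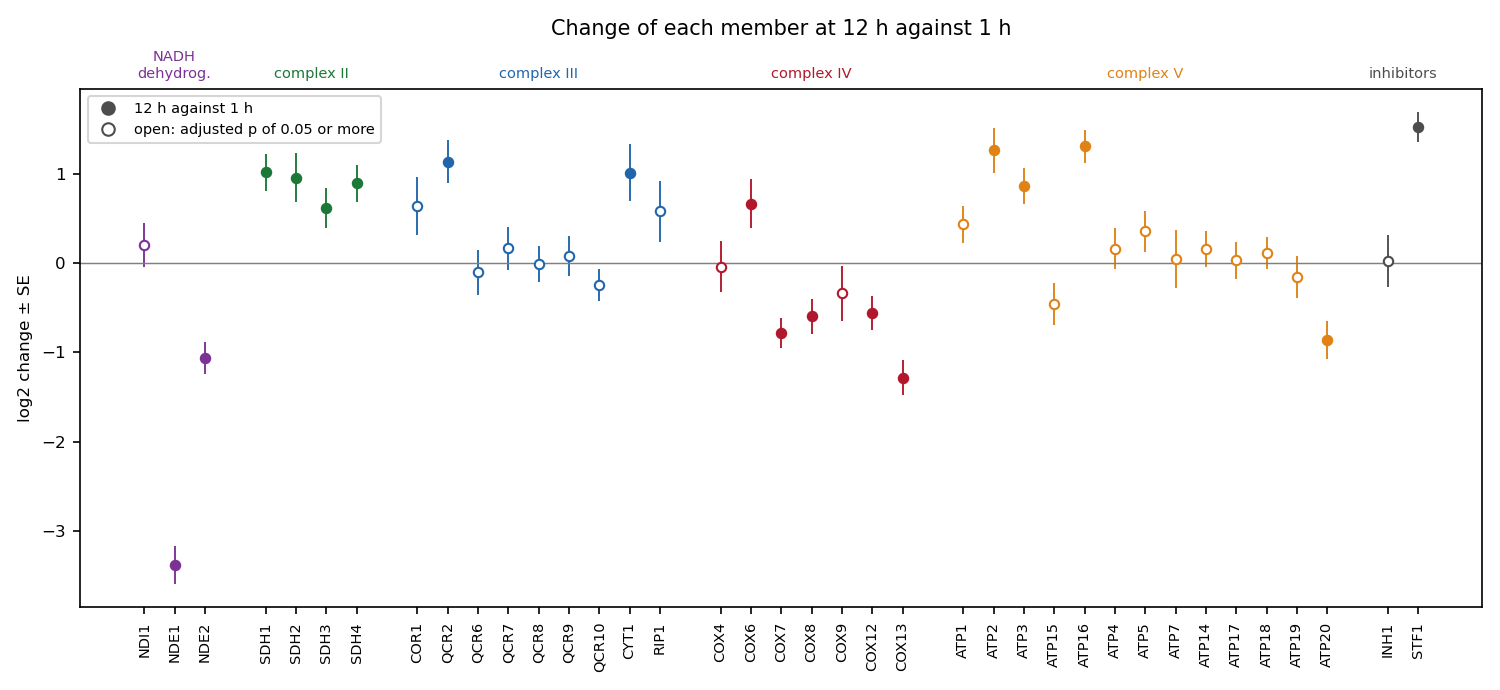
Log2 change ± SE of each of the 38 genes at 12 h against 1 h, by complex, with open symbols for an adjusted p of 0.05 or more. The 4 genes of complex II lie above 0, 6 of the 7 of complex IV lie below it, and NDE1 lies lowest, at -3.38.

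Further genes of the same machinery were followed in lists that took no part in choosing the 38. Of 11 more nuclear subunits, isoforms and forms of cytochrome c, 9 rose and 0 fell at 60 h against 24 h, and 5 rose and 2 fell at 340 h. Among all genes 22.6% rose and 20.8% fell at 60 h, and 27.8% rose and 36% fell at 340 h. TIM11, the subunit e that helps the ATP synthase to dimerise, rose by 0.97 ± 0.22 at 60 h and fell by 0.99 ± 0.22 at 340 h (-0.29 and not called when centred on the reference genes). RCF1, which links complexes III and IV, rose by 1.19 ± 0.31 at 60 h, and at 340 h it changed by -0.76 ± 0.31 (adjusted p = 0.0414) with overlapping arrays. RCF1 did not pass without replicate 3 of 340 h (-0.37, adjusted p = 0.289) or replicate 1 or 2 of 24 h (-0.54 and -0.74), or under either centring (-0.65 and -0.06).

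Of 8 genes encoded in the mitochondrial genome itself, 0 rose and 0 fell at 60 h, and 3 rose and 0 fell at 340 h. The shares of all genes were 22.6% and 20.8% at 60 h, and 27.8% and 36% at 340 h. COX1, the catalytic subunit of complex IV, read 9.21, 9.57 and 10.42 at 340 h, against 6.15, 6.01 and 6.68 at 24 h, with no overlap (3.45 ± 0.34, adjusted p = 1.01e-07). ATP6, which forms the proton path of the ATP synthase, rose by 1.62 ± 0.37 and COB, cytochrome b of complex III, by 0.43 ± 0.18. The call of COB was lost without replicate 3 of 24 h (0.29) or replicate 1 or 2 of 340 h (0.33 and 0.47), and with all 21 arrays in the fit (adjusted p = 0.0619). The other probe sets for COX1 gave 0.36 and 0.17 at 340 h, and the second for COB gave 0.21, none of which passed. Their mean levels were low, at 3.02, 3.60 and 2.79, against 7.41 for the COX1 probe set used, so they could miss a change. Of the 8 genes, 6 had a mean level between 2.787 and 3.861, near the lowest of all genes (2.524), so that a change in them could be missed. On the 340 h arrays, where COX1 rose, the 18S signal was also high (10.09 to 12.08, against 6.364 to 9.327 at 24 h). Whether the rise of COX1 is linked to it was not tested.

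Of 37 assembly factors, 26 rose and 0 fell at 60 h, and 16 rose and 5 fell at 340 h. For all genes the shares were 22.6% and 20.8% at 60 h, and 27.8% and 36% at 340 h. SDH7, which assembles complex II, rose by 2.01 ± 0.17 at 60 h and COX15, which makes heme a for complex IV, by 1.94 ± 0.37, and both kept 1.92 and 1.97 at 340 h. Of those that fell at 340 h, ATP12 (-0.83 ± 0.21), ATP23 (-0.68 ± 0.26) and TCM62 (-0.69 ± 0.27) act on complex V or II, and PET117 (-0.83 ± 0.19) and COX11 (-0.68 ± 0.17) on complex IV. Centred on the reference genes none of the 5 passed, with changes of -0.13 to 0.02. TCM62 also did not pass without replicate 3 of 24 h (-0.28, adjusted p = 0.26) or replicate 2 or 3 of 340 h (-0.64 each), nor ATP23 without replicate 2 or 3 of 24 h (-0.70 and -0.50) or of 340 h (-0.61 and -0.68), and neither passed when centred on the median of all genes (-0.57 and -0.56). Of 17 genes for mitochondrial transcription and translational activation, 4 rose and 0 fell at 60 h, and 4 rose and 3 fell at 340 h, with medians of 0.25 and 0.03. These shares lie close to those of all genes given above, or below them. NCA3 led them at 60 h (2.58 ± 0.19).

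Coenzyme Q carries electrons from the dehydrogenases and complex II to complex III. Of the 11 genes of its synthesis, 7 rose and 0 fell at 60 h against 24 h, with a median of 0.79, and 1 rose and 7 fell at 340 h, with a median of -0.60. Among all genes 22.6% rose and 20.8% fell at 60 h, and 27.8% rose and 36% fell at 340 h. The only rise of the list at 340 h was that of COQ9 (1.17 ± 0.23, adjusted p = 0.000193), and the largest fall was that of COQ8 (-1.50 ± 0.21). A second probe set for COQ9 rose by 1.02, and the third changed by 0.63 and did not pass. At 12 h against 1 h, 9 of the 11 rose, against 26% of all genes, led by the methyltransferase COQ5 (3.17 ± 0.20).

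Of 10 regulators of respiratory genes, 4 rose and 0 fell at 60 h, and 4 rose and 1 fell at 340 h. The shares of all genes were 22.6% and 20.8% at 60 h, and 27.8% and 36% at 340 h. HAP4, the activator subunit, read 9.78, 9.92 and 10.36 at 340 h, against 8.71, 8.33 and 7.10 at 24 h, where replicate 3 was the lowest. Its change was 1.67 ± 0.31 at 60 h (adjusted p = 0.00029), 1.97 ± 0.31 at 120 h and 1.97 ± 0.31 at 340 h, and the change from 120 h to 340 h did not pass (0.00 ± 0.31, adjusted p = 0.999), a step in which 27 of the 38 genes fell. HAP5 rose by 0.92 ± 0.23 at 60 h and changed by -0.03 ± 0.23 at 340 h.

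Of the 5 further enzymes that feed electrons into the chain, 4 rose and 0 fell at 60 h, and 4 rose and 1 fell at 340 h. For all genes the shares were 22.6% and 20.8% at 60 h, and 27.8% and 36% at 340 h. CYB2, which passes electrons from lactate straight to cytochrome c, rose by 5.42 ± 0.44 at 60 h, PUT1, the proline oxidase, by 3.82 ± 0.24, and GUT2, the glycerol phosphate dehydrogenase, by 1.27 ± 0.30. DLD2 fell at 340 h (-0.77 ± 0.23), and changed by -0.07 when centred on the reference genes. Of the 7 carriers of ATP, ADP and phosphate and porins of the outer membrane, 5 rose and 2 fell at 60 h, and 4 rose and 2 fell at 340 h. These counts stand beside the same shares of all genes. The phosphate carrier MIR1 rose by 2.41 ± 0.26 at 60 h and PET9, the main ADP/ATP carrier, by 2.34 ± 0.30. AAC3, the carrier of oxygen-poor cells, read 6.61, 6.21 and 6.87 at 60 h, against 10.12, 10.01 and 10.28 at 24 h, with no overlap (-3.57 ± 0.19, adjusted p = 6.37e-10), and at 12 h against 1 h it had risen by 4.37 ± 0.21.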

How the data were processed

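Each of the 21 arrays measured labelled RNA of one culture. The deposited values are on the log2 scale, from 2.01 to 14.1, and RMA and the affy package are named per the submitters' processing notes; whether all arrays were normalized together is not given in the sources used here. Of 9335 probe sets, 6504 match 1 gene, 328 several, 2443 none, and 60 are controls, which left 5656 genes. Gene names and gene lengths came from RefSeq's table for the R64 assembly. Every column was used. Depth has no meaning for arrays, and their number limits the precision.

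Changes were fitted in limma 3.58.1 (R 4.3.3) with a mean per time, over the 15 arrays from 24 h to 340 h, or all 21 for steps that involve 1 h and 12 h. P-values were adjusted by Benjamini-Hochberg over all 5656 genes, with a threshold of 0.05, and errors are SE. Second probe sets were read from a separate fit of the 15 arrays. It held all probe sets but the controls, with the control for RIP1 kept, and p-values were adjusted over all of these. The scripts were tested on simulated data. The replicates are biological ones per the labels. Same-numbered replicates had correlated deviations (every pair above 0.1) in 2 steps only: the lowest was 0.164 for 120 h against 60 h, and 0.153 for the step that followed. This pairing comes from the data, not from the labels. The alternatives changed the arrays in the fit, the centring, the normalization, the spread estimate, the filter on dim genes, the probe set rule, the replicate block and the replicates. Pairs of paralogues were compared by exact permutation over arrays.

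The 38 genes and the lists were chosen with earlier results of these data known. From each other list the text names genes among the 4 with the largest change past the threshold at 60 h or 340 h against 24 h, those that passed in the opposite direction, the 6 paralogue pairs and HAP4. Second probe sets are named because they bear on such genes. Promoter motifs and protein sequences were not analysed here.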

Additional observations from a re-analysis of the deposited data

How the results depend on the processing

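Counts of called genes against 24 h stayed within 1.5 times of those reported under every alternative run: leaving out single arrays gave 35 to 37 genes for 48 h, 37 to 38 for 60 h, 35 to 37 for 120 h and 26 to 31 for 340 h, against 37, 38, 36 and 31. The steps with few calls did not. At 60 h against 48 h, 0 genes were called after centring on the 5 reference genes, 1 with plain probe sets only, and 0 to 1 without single arrays. At 120 h against 60 h it was 1 to 7 without single arrays, and 2 after centring on the reference genes. Those 2, CYT1 and COX7, were higher, where 13.8% of all genes were higher and 1.31% lower. The 5 genes called lower as deposited stayed below 0 on that scale and did not pass. At 24 h against 12 h it was 0 with the 6 arrays alone or the mean of all probe sets, 2 with either centring, and 0 to 2 without single arrays. The replicate block gave 37, 38, 36, 33, 3, 7, 29, 18 and 1 genes for the 9 comparisons in the order of the report, no count moving by over 1.5 times. Where numbers did not pair the samples, the block also called COX8 and COX9 at 340 h against 24 h and NDI1 at 60 h against 48 h.

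Centring on the reference genes alone turned directions round. At 340 h against 24 h the median became 0.20 for complex V, 0.18 for its peripheral stalk and 0.42 for its small membrane subunits. Single changes became 0.18 for ATP3, 0.16 for ATP4, 0.20 for ATP14, 0.00949 for ATP17, 0.14 for ATP20, 0.0176 for COX11, 0.0163 for ATP23, 0.00984 for TCM62, 0.13 for MTF1, 0.0483 for CBS2, 0.67 for HAP5 and 0.18 for MIG1, and CBS2 became 0.49 at 120 h. The cause was not tested beyond the shift itself. The centring took the median level of the 5 genes on each array. Its shift was 0.70 at 340 h and 0.53 at 120 h against 24 h. The median change of the 5 genes was -0.32 and -0.05 there. That centring also moved the share of higher genes among all calls to 88.5% for 48 h, 72.2% for 60 h, 81.9% for 120 h and 77.1% for 340 h against 24 h, where it was 60.3%, 52.1%, 50% and 43.5%. It was 91.4% at 120 h against 60 h (48.1% as deposited), 55.1% at 340 h against 120 h (37.4%, and 48.4% when centred on the median), 58.5% at 12 h against 1 h (43.4%) and 3.88% at 24 h against 12 h (38.5%).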

Other observations

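Some isoforms tied to oxygen changed in the first hours, a step in which no ethanol level is given. At 12 h against 1 h COX5B, the low-oxygen form of a complex IV subunit, rose by 3.74 on the log2 scale and its aerobic partner COX5A fell by 1.26. CYC7, the low-oxygen cytochrome c, rose by 1.99, and its aerobic partner CYC1 changed by -0.79 with overlapping arrays and did not pass (limma, adjusted p = 0.152). CYC1 passed without replicate 3 of 1 h (-1.30) or replicate 1 of 12 h (-1.53). The differences within these pairs were not tested at this step. Apart from the isoforms, the carriers MIR1 and PET9 fell by 2.00 and 1.11 and the ATP synthase subunit TIM11 by 1.34. Oxygen was not measured in the files used here.

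The probe sets of HAP1, a heme-dependent activator of respiratory genes, went opposite ways at 340 h against 24 h. The brightest one, used for the gene, changed by -0.57 and another by -0.81, neither past the threshold, and the names of both end in _f_at. The third, a plain probe set, rose by 2.98 (limma, adjusted p = 1.45e-08). Among the 10 regulators HAP1 was counted by the brightest one, as not passing. HAP1 was singled out after its values were seen, and is given no direction.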
